A study of Mus musculus with 4 samples.

Results

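Nuclear oxidative phosphorylation genes code for the subunits of the respiratory chain and of ATP synthase that are made in the cytosol and imported into mitochondria. They were taken by symbol: Nduf with a letter a, b, c, s or v and a number, Uqcr, Sdha to Sdhd, Cox5 to Cox8 with a letter a to c, and Atp5, without Cox6a1, Cox6a2, Cox7a1 and Cox7a2. Of 19074 genes listed, 75 met this rule, and they are called the members below. By symbol, 37 belonged to complex I (Nduf), 4 to complex II (Sdh), 8 to complex III (Uqcr), 10 to complex IV (Cox) and 16 to complex V (Atp5). The symbol decides the complex here, so Ndufa4, a subunit now assigned to cytochrome oxidase, and its paralogue Ndufa4l2 are counted under complex I. Of the 75 symbols, 74 matched the GENCODE M21 annotation (GRCm38), where they lay on 19 chromosomes, with at most 6 on any of them. The row Atp5o.1 carries the suffix of a repeated symbol, and the annotation gives Atp5o to more than 1 gene model, so which model it counts is uncertain.

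The islets came from C57BL/6 mice and were measured cell by cell with the 3′ assay of 10x Genomics, which counts each captured RNA molecule by a unique molecular identifier (UMI). The 2 wild type libraries came from Sel1Lf/f mice, which carry floxed Sel1L alleles and no Cre, and the 2 knockout libraries from Sel1LIns1 mice, in which Cre recombinase made from the insulin gene Ins1 deletes Sel1L in beta cells. SEL1L is the adaptor of the HRD1 ubiquitin ligase, which clears misfolded proteins from the endoplasmic reticulum, and the series asks what this pathway does for the identity and function of beta cells. All mice were 7 weeks old per the sample labels and 5 weeks old per the series text, and all islets recovered overnight in culture before trypsin digestion. No library had Cre with intact Sel1L, so what Cre does and what the deletion does cannot be told apart. The labels do not say whether libraries came from separate or pooled animals. The p-values between genotypes within a class thus measure differences against the spread between these libraries only. Comparisons between classes used a fit with a term for each library. Their p-values measure differences against the spread that remained between classes of these libraries.

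Beta cells were those with at least 10% of UMIs from Ins1 and Ins2, alpha cells had at least 3% from Gcg and under 5% insulin, and delta cells at least 3% from Sst and under 5% insulin. After removal of doublets, 3541 and 3469 wild type and 2402 and 1373 knockout beta cells were summed per library. Alpha cells numbered 1111 and 939 against 759 and 326, and delta cells 459 and 532 against 307 and 230. Between 517 and 764 cells per library met none of the rules. Hormone genes gave 73.1% and 74.0% of the UMIs of wild type beta cells and 50.2% and 51.8% of those of knockout beta cells. For that reason levels are given below as CPM, the UMIs of a gene scaled to a common total of the UMIs that did not come from 7 hormone genes (Ins1, Ins2, Gcg, Sst, Ppy, Pyy, Iapp). A beta cell held 12773 and 13397 such non-hormone UMIs in wild type, against 23069 and 25763 in knockout libraries. The values were 11113 and 11287 against 17711 and 17636 in alpha cells, and 8229 and 9021 against 12350.1 and 13622 in delta cells. Libraries totalled 99156230 to 228515309 UMIs over 2483 to 5951 cells, and pairs of libraries shared 1 to 9 cell barcodes. Sel1l, the targeted gene, had 125 and 124 CPM in wild type, against 87.5 and 92.0 in knockout beta cells, 30.8 and 34.8 against 42.6 and 42.8 in alpha cells, and 51.6 and 44.2 against 58.6 and 52.3 in delta cells. Which exons the deletion removes is not given in the labels, and UMIs of a 3′ assay may lie outside them, so these values do not check the deletion.

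Complex I (NADH dehydrogenase) and complex II (succinate dehydrogenase) pass electrons from NADH and succinate to ubiquinone. Complex III passes them on to cytochrome c and complex IV to oxygen, and ATP synthase, complex V, uses the proton gradient built on the way to make ATP. In beta cells the ATP made from glucose closes potassium channels and starts insulin release, so these complexes stand between glucose and secretion. Most subunits are coded in the nucleus, and mitochondrial DNA codes for core subunits of all complexes but complex II. Transcription factors known to act at the promoters of many nuclear subunit genes include NRF1, the ETS factor GABP, YY1 and the estrogen-related receptors.

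The promoters of 6 members are shown because they are the 3 members each way with the smallest p for a difference in genotype change between beta and alpha cells: Uqcrh, Cox7a2l and Ndufb11 were higher in knockout beta cells relative to alpha cells, and Ndufc2, Atp5b and Ndufa11 lower. Each sequence is the 250 bases before the transcript start in RefSeq (GRCm38.p6), read 5′ to 3′ on the strand of the gene. Capitals mark a match to 1 of 4 motifs, searched on both strands over these bases and the first 50 of the transcript: GCGCATGCG for NRF1, CCGGAAG for ETS factors, AAGATGGCG for YY1 and TCAAGGTCA for estrogen-related receptors.
Uqcrh: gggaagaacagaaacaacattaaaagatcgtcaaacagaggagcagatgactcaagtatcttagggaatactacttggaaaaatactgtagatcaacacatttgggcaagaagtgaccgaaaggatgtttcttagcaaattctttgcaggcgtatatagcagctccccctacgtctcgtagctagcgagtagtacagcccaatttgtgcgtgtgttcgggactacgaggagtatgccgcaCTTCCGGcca
Cox7a2l: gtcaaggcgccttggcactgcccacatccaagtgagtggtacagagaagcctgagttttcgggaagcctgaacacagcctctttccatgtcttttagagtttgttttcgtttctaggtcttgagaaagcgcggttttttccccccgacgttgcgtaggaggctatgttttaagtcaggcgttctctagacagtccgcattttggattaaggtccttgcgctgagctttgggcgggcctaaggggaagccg
Ndufb11: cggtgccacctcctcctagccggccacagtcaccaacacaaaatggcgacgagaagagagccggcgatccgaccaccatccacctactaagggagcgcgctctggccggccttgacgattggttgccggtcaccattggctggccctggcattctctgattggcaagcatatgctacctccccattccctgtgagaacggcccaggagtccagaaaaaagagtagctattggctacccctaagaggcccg
Ndufc2: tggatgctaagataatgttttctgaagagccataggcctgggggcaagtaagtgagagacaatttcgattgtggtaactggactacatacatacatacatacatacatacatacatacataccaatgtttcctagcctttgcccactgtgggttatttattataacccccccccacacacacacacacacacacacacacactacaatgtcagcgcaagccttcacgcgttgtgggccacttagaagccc
Atp5b: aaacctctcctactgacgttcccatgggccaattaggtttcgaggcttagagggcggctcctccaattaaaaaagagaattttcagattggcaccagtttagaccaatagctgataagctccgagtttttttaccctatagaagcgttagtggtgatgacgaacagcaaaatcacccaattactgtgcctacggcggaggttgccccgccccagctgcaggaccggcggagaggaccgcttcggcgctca
Ndufa11: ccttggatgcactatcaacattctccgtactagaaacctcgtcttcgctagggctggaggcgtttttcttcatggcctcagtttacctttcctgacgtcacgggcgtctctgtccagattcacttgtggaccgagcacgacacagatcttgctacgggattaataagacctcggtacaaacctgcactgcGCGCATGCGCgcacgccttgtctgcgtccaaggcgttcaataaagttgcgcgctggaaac
These stretches lie at chr4:116075071-116075320 (- strand), chr17:83514334-83514583 (- strand), chrX:20617620-20617869 (- strand), chr7:97399753-97400002 (+ strand), chr10:128083057-128083306 (+ strand) and chr17:56717512-56717761 (+ strand). The Uqcrh promoter held the ETS letters starting 10 bases before the transcript start, and the Ndufa11 promoter the NRF1 letters starting 60 bases before it. None of the 4 motifs was found in the other 4 windows. Promoters were listed for 63 of the 75 members (68 promoters), beside 32851 promoters of all genes with windows of the same 300 bases. The NRF1 letters stood in 10.3% of member promoters and 1.75% of all. The ETS letters stood in 22.1% of member promoters and 8.86% of all, the YY1 letters in 10.3% and 1.40%, and the estrogen-related receptor letters in 2.94% and 0.423%. The NRF1 match of Ndufa11 reads on both strands over the letters in capitals, no motif contains another, and a match is a description of the sequence, not of binding.

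In all 3 cell types the members' summed part of the non-hormone UMIs was smaller in knockout islets, while knockout cells held more of their UMIs on average. As a share of all UMIs, hormones included, the members went in beta cells from 0.910% and 0.881% to 1.43% and 1.36%. Relative to other genes (TMM scaling), 46 of 74 members tested fell in knockout beta cells and 3 rose, but with sums scaled by the number of cells 68 rose and with library size only 69 rose, and none fell under either. The background in beta cells was 21.2% of 14846 genes called lower and 20.3% called higher by edgeR's quasi-likelihood test. The median log2 change of the members was -0.29, beside 0.00 for all genes. In alpha cells 55 of 73 fell and 0 rose, against a background of 10.5% lower and 7.51% higher of 12708 genes, and the median was -0.31 beside 0.01. In delta cells 41 of 73 fell and 0 rose, against 5.12% lower and 3.24% higher of 11647 genes, and the median was -0.31 beside 0.01. At an unadjusted p under 0.05, edgeR had 1 member higher in alpha and 1 in delta cells, and DESeq2 called 0 higher in either. Scaled by the number of cells, 72 members rose in alpha and 50 in delta cells and none fell, and with library size only 2 rose and 10 fell in alpha cells and 2 rose and 9 fell in delta cells.

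UMIs per cell were higher in knockout cells over genes as a whole. Scaling by the number of cells moved the median of all genes to 0.92 in beta, 0.78 in alpha and 0.69 in delta cells, and library size only moved it to 0.91, 0.23 and 0.16. Relative to that median the members lay at -0.29, -0.32 and -0.32 with cell scaling, and at -0.29, -0.32 and -0.32 with library size only. Under each of the 3 scalings 66 of 74 members in beta cells lay below the median gene, as did 70 of 73 in alpha and 68 of 73 in delta cells. The scalings differ only by a factor per library, which shifts all genes by nearly the same amount. Places relative to the median gene are thus nearly fixed across these scalings, here and below, and are not separate results. In the text below, higher, lower, rose and fell mean relative to other genes under TMM scaling unless UMIs per cell are named. The counts also changed when 1 library was left out, which leaves 1 library in a genotype and less to estimate the spread from. The share of all genes called in those fits is not given, here and below. Whether the members lost calls more than other genes did was thus not tested. In beta cells 14 members were lower without knockout library 2, 23 without knockout library 1, and 51 and 43 without wild type libraries 1 and 2. In delta cells the count was 24 and 15 without wild type libraries 1 and 2, and 14 and 9 without knockout libraries 1 and 2. In alpha cells 40 to 54 were called lower without 1 library. Of the called members, 16 of 49 in beta, 35 of 55 in alpha and 6 of 41 in delta cells were called in the same direction without each of the 4 libraries in turn.

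Summed over all members, 3.38% and 3.39% of the non-hormone UMIs of wild type beta cells came from these genes, and 2.87% and 2.82% of those of knockout beta cells. Alpha cells had 3.47% and 3.34% against 2.96% and 2.96%, and delta cells 2.97% and 2.97% against 2.59% and 2.55%. Knockout and wild type libraries did not overlap in any of the 3 classes. In beta cells the knockout over wild type ratio of the mean share was 0.797 for complex V, 0.814 for complex III, 0.849 for complex I, 0.897 for complex IV and 0.938 for complex II. Complex II stayed nearest to 1 in the other classes too, with 0.966 in alpha and 1.04 in delta cells, where the remaining complexes ranged from 0.859 to 0.872 and from 0.848 to 0.894. Counted per cell, the sum was 432 and 454 UMIs in wild type, against 662 and 725 in knockout beta cells. It was 386 and 377 against 524 and 523 in alpha cells, and 244 and 268 against 319.5 and 347 in delta cells. Per cell the sum in knockout beta cells was thus 1.57 times that in wild type cells, while non-hormone UMIs per cell were 1.87 times those in wild type cells. The quartiles of single beta cells were 3.04% to 3.67% and 3.05% to 3.67% in wild type and 2.67% to 3.08% and 2.61% to 3.03% in knockout libraries, so the upper quartile of knockout cells lay close to the lower quartile of wild type cells. Whether cells hold fewer transcripts of these genes or relatively more of others, and how far capture per cell differed between libraries, was not tested.

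**Figure D1:**
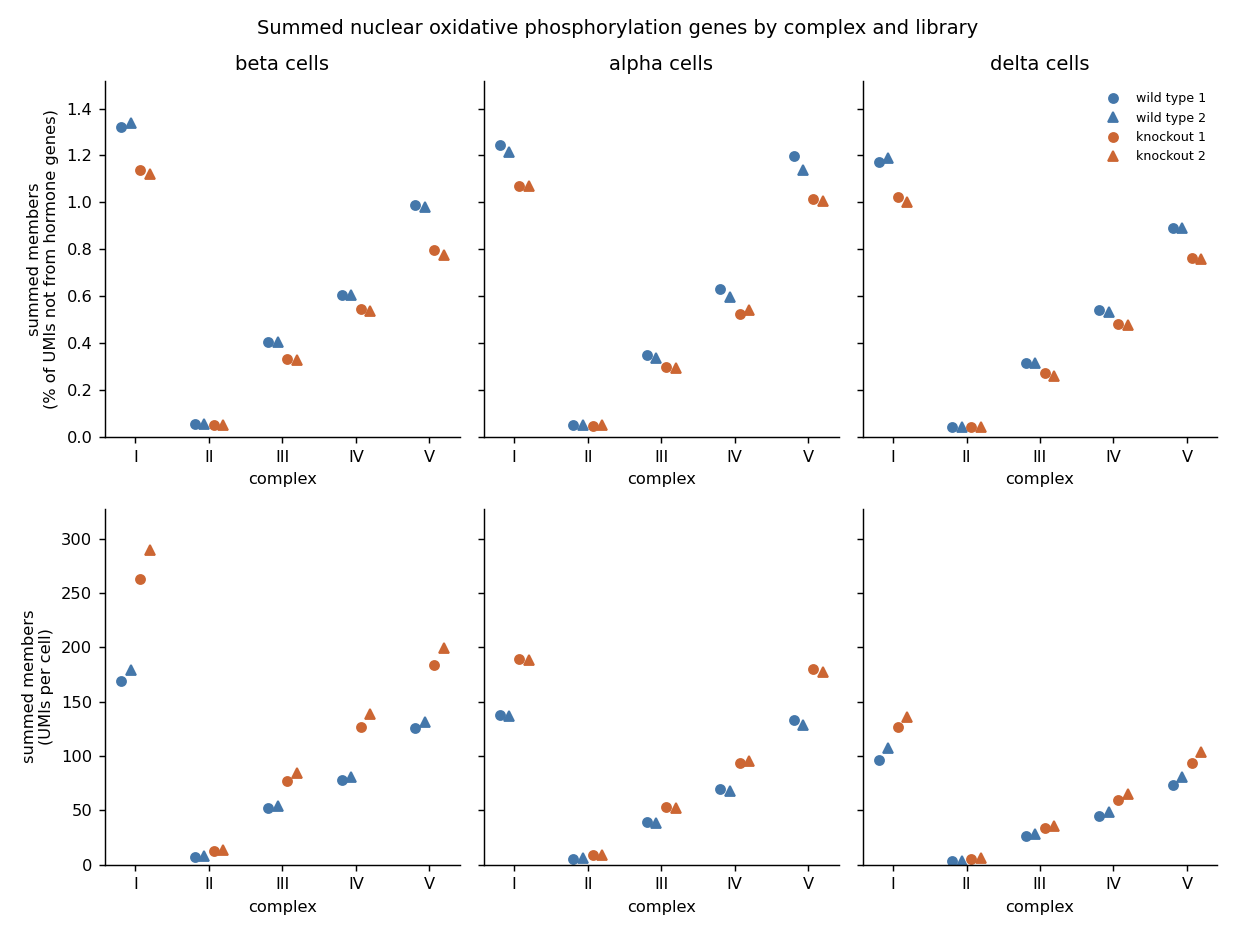
Summed UMIs of the members of each complex, as a percentage of non-hormone UMIs (upper row) and per cell (lower row), in beta, alpha and delta cells; each point is 1 library. Knockout points lie below wild type points for complexes I, III, IV and V in the upper row and above them in the lower row, where the beta cell total over all complexes went from 432 and 454 to 662 and 725 UMIs.

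The median log2 change of complex I members in beta cells was -0.28, with 23 of 37 called lower and 1 called higher. Ndufc2, an accessory subunit of the membrane arm, had 605 and 656 CPM in wild type beta libraries and 365 and 341 in knockout libraries (log2 change -0.86 ± 0.08 (SE), edgeR adjusted p = 0.000652). Ndufa11, another accessory membrane subunit, went from 434 and 488 to 276 and 275 (log2 change -0.76 ± 0.09 (SE), edgeR adjusted p = 0.00107). Ndufb6, likewise of the membrane arm, went from 208 and 209.8 to 144 and 135 (log2 change -0.60 ± 0.07 (SE), edgeR adjusted p = 0.000955). In these 3 genes both knockout libraries lay well below both wild type libraries. Per cell, Ndufc2 had 7.73 and 8.79 UMIs in wild type, against 8.42 and 8.77 in knockout libraries, values that overlapped. Ndufs8, a core iron-sulphur subunit, went from 131 and 147 to 91.1 and 83.2. Ndufs8 falls outside the rule for named genes in beta cells and was chosen after its values were seen. Ndufa1 and Ndufb11, X-linked accessory subunits, were not called in beta cells: Ndufa1 had 721 and 603 against 767 and 802 (adjusted p = 0.0929) and Ndufb11 569 and 595 against 658 and 635 (adjusted p = 0.204).

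Ndufa4 and its paralogue Ndufa4l2, which is known as a hypoxia-induced gene, went in opposite directions in beta cells. Ndufa4 fell from 847 and 852 to 689 and 623 CPM (log2 change -0.39 ± 0.08 (SE), edgeR adjusted p = 0.00927). Ndufa4l2 rested on few molecules, with counts of 144 and 107 in wild type, against 242 and 183 in knockout libraries (log2 change 0.78 ± 0.19 (SE), edgeR adjusted p = 0.0186). The call for Ndufa4l2 was lost without knockout library 2 (log2 change 0.67) and among beta cells of 30 to 60% insulin (0.73). In alpha cells its counts were 5 and 3 in wild type, against 0 and 0 in knockout libraries, below the filter on low counts, so no fold is given there.

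Complex II changed least as a share of non-hormone UMIs. Counted per cell it rose most, with knockout over wild type ratios of 1.75 in beta, 1.52 in alpha and 1.57 in delta cells. The other complexes ranged per cell from 1.49 to 1.67 in beta, 1.36 to 1.38 in alpha and 1.28 to 1.35 in delta cells. Sdhb, the iron-sulphur subunit, fell in beta cells from 169 and 193 to 150.3 and 141 CPM (log2 change -0.33 ± 0.09 (SE), edgeR adjusted p = 0.0271), and this call was lost without either knockout library. In alpha cells Sdhb had 147 and 158 against 119 and 112 (log2 change -0.51 ± 0.07 (SE), edgeR adjusted p = 0.00169) and in delta cells 128 and 159.6 against 115 and 109 (log2 change -0.46 ± 0.11 (SE), edgeR adjusted p = 0.0235). It was thus lower in all 3 classes, with no overlap between genotypes in any of them. Sdha, the flavoprotein that oxidises succinate, had 157 and 146 against 156 and 147 in beta cells (log2 change -0.02 ± 0.07, adjusted p = 0.820). The membrane anchors Sdhc and Sdhd had log2 changes of -0.09 ± 0.06 and 0.03 ± 0.07 in beta cells, neither called. In alpha and delta cells Sdha and Sdhc had positive fitted values between 0.10 and 0.26 that were not called, and Sdhd fell in alpha cells only (log2 change -0.23 ± 0.07 (SE), edgeR adjusted p = 0.0395). The list of 4 genes is too short for its median (-0.05 in beta, -0.06 in alpha and 0.10 in delta cells) to say more than these values do.

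In complex III, 6 of 8 members fell and 1 rose in beta cells, and the median was -0.33. Uqcrq, a small subunit next to cytochrome b, had 1242 and 1238 CPM in wild type, against 779 and 781 in knockout beta libraries (log2 change -0.69 ± 0.07 (SE), edgeR adjusted p = 0.000822). It was also the called member with the smallest p in alpha cells, from 584 and 587 to 445 and 445 (log2 change -0.51 ± 0.07 (SE), edgeR adjusted p = 0.00129), and in delta cells, from 529.8 and 548 to 390.3 and 373 (log2 change -0.59 ± 0.08 (SE), edgeR adjusted p = 0.00147). Replicate libraries of each genotype lay close together for Uqcrq in every class. Uqcrb, another small subunit, fell from 579 and 617 to 422 and 420.3 in beta cells (log2 change -0.53 ± 0.08 (SE), edgeR adjusted p = 0.00248). Uqcrc1, a core protein facing the matrix, fell from 119.6 and 111 to 90.9 and 89.8 (log2 change -0.37 ± 0.06 (SE), edgeR adjusted p = 0.00369) and was not called in alpha (-0.10 ± 0.07) or delta cells (-0.09 ± 0.11). Uqcrh, the hinge protein that contacts cytochrome c1, rose from 406 and 422 to 590.2 and 571 CPM in beta cells (log2 change 0.47 ± 0.07 (SE), edgeR adjusted p = 0.00324), which is 1.38-fold. Its levels in alpha cells, 498 and 498 against 499.5 and 464, overlapped between genotypes. The rise was called with library size only and with cell scaling as well, but so were rises of most members (69 and 68 of 74). Those 2 calls therefore do not set Uqcrh apart.

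In complex IV, 4 of 9 members tested fell and 1 rose in beta cells, with a median of -0.21. Cox6c, a small accessory subunit, fell from 1004 and 965 to 665 and 673 CPM (log2 change -0.58 ± 0.07 (SE), edgeR adjusted p = 0.00131). Cox5a, a matrix-facing subunit, fell from 292 and 326 to 214 and 201 (log2 change -0.59 ± 0.09 (SE), edgeR adjusted p = 0.00258). Cox6b1, which contacts cytochrome c, fell from 591 and 581 to 477 and 471 (log2 change -0.33 ± 0.07 (SE), edgeR adjusted p = 0.00922), a call that was lost without either knockout library. Cox7a2l rose from 592 and 585 to 954 and 877 (log2 change 0.62 ± 0.08 (SE), edgeR adjusted p = 0.00145), or 1.53-fold. In alpha cells it had 273 and 275 against 336 and 264 and in delta cells 294 and 317 against 374 and 319, neither called. Of the 3 members higher in beta cells, Uqcrh and Cox7a2l were called without each of the 4 libraries in turn. Cox8a, a small core-bound subunit, had 1609.8 and 1672 against 1448 and 1429 in beta cells (log2 change -0.21 ± 0.08 (SE), edgeR adjusted p = 0.0741), was called lower by DESeq2 and without wild type library 1, and Cox8a was the one gene with a Cox8 symbol among the members. The testis-type isoform gene Cox6b2 stayed between 0.956 and 1.70 CPM in beta libraries, and Cox7b2, also known from testis, did not pass the filter on low counts in any class, with at most 0.638 CPM in any library.

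In complex V, 12 of 16 members fell in beta cells and none rose, with a median of -0.29. Atp5b, the catalytic subunit of the F1 head, had 492 and 497 CPM in wild type, against 379 and 367 in knockout beta libraries (log2 change -0.43 ± 0.07 (SE), edgeR adjusted p = 0.00366), and the call was lost without knockout library 2. In alpha cells Atp5b had 478 and 485 against 506 and 514 and was not called (-0.03 ± 0.07). Atp5a1, which codes for the other large subunit of the head, had 447 and 473 against 429.6 and 413 in beta cells and was not called in any class. Atp5e, the smallest subunit of the central stalk, fell from 1401 and 1225 to 943 and 951 (log2 change -0.49 ± 0.08 (SE), edgeR adjusted p = 0.00450). The Atp5g paralogues, which code for the same mature subunit of the membrane ring, all fell in beta cells. Atp5g1 went from 859 and 948 to 564 and 513 (log2 change -0.77 ± 0.09 (SE), edgeR adjusted p = 0.00132), Atp5g2 from 803 and 879 to 674 and 659 (log2 change -0.36 ± 0.08 (SE), edgeR adjusted p = 0.0157) and Atp5g3 from 411 and 425 to 344 and 326 (log2 change -0.34 ± 0.07 (SE), edgeR adjusted p = 0.0102). Only the Atp5g1 call among these held without each library in turn, and reads from near-identical copies of these genes could be split or dropped by the authors' counting. Atp5k, a membrane subunit, was called lower in beta cells (-0.55), but wild type library 1 exceeded wild type library 2 in every class: 564 and 374 in beta, 704 and 454 in alpha and 513 and 338 in delta cells. Atp5a1, Atp5k and Atp5s were named after their values were seen. Atp5s, named for ATP synthase but known as a coupling or assembly factor, had 14.7 and 15.5 against 13.5 and 13.3 in beta cells and was not called.

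**Figure D2:**
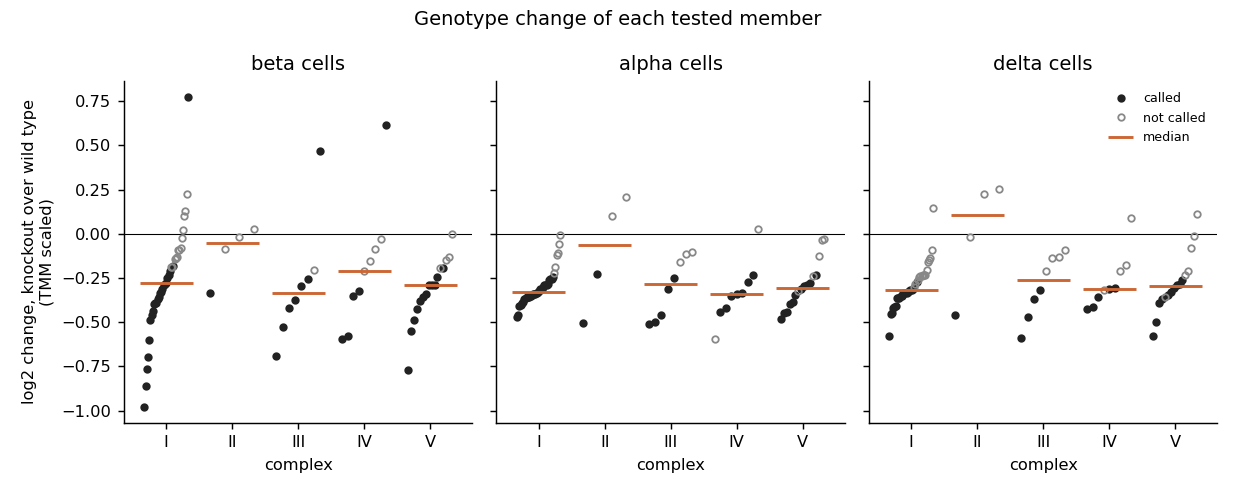
Log2 change, knockout over wild type under TMM scaling, of each tested member by complex in beta, alpha and delta cells; filled points were called at an adjusted p under 0.05 (edgeR), open points were not, and lines are medians. Most points lie below 0 in complexes I, III, IV and V, complex II has 1 or 2 called members in each class, and the called points above 0 in beta cells are Ndufa4l2, Uqcrh and Cox7a2l; scaled by the number of cells, 68 members rose in beta cells.

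Alpha and delta cells are not the cells in which Ins1-driven Cre is meant to act, yet members were lower in them too. In alpha cells 30 of 36 members of complex I were called lower, 2 of 4 of complex II, 5 of 8 of complex III, 7 of 9 of complex IV and 11 of 16 of complex V. In delta cells the counts were 21 of 36, 1 of 4, 4 of 8, 5 of 9 and 10 of 16. Beside Uqcrq and Sdhb, the smallest p in alpha cells belonged to Ndufs8, which went from 132 and 135 to 105 and 104 CPM (log2 change -0.47 ± 0.07 (SE), edgeR adjusted p = 0.00180). In delta cells Atp5g1 went from 684 and 745 to 522 and 499 (log2 change -0.58 ± 0.08 (SE), edgeR adjusted p = 0.00203) and Atp5g2 from 791 and 841 to 619 and 611 (log2 change -0.50 ± 0.08 (SE), edgeR adjusted p = 0.00340). Genotypes did not overlap for any of these genes. The 3 comparisons use cells of the same 4 libraries, so anything that differs between libraries enters all of them. Of the 46 members lower in beta cells, 38 (82.6%) were among the 55 lower in alpha cells, of which they are 69.1%. The 41 members lower in delta cells were all lower in alpha cells too, and 29 members were lower in all 3 classes. Overlaps of this kind are not given for all genes, so whether they are particular to the members was not tested. The 8 called lower in beta cells alone were Atp5b, Atp5k, Atp5o.1, Ndufa10, Ndufs1, Ndufv1, Uqcrc1 and Uqcrc2. The 12 lower in none were Atp5a1, Atp5s, Cox6b2, Cox7a2l, Cox7b2, Ndufa12, Ndufa4l2, Ndufa6, Ndufa9, Sdha, Sdhc and Uqcrh. CPM levels were also set side by side without a test. Both knockout libraries lay below both wild type libraries for 60 of 75 members in beta, 59 in alpha and 56 in delta cells. Of all genes with a UMI in the class, 31.3%, 16.4% and 15.9% did so. Both knockout libraries lay above both wild type libraries for 6, 5 and 7 members, beside 34.2%, 36.7% and 30.7% of all genes.

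Whether the genotype change of a member differed between beta cells and the other 2 cell types was tested as the interaction of class and genotype in 1 fit that had a term for each library. Beta minus alpha, 18 of 74 members were higher and 11 lower, against a background of 13.6% higher and 13.4% lower of 14163 genes. Beta minus delta, 11 were higher and 9 lower, against 9.63% and 9.57%. The median differences over the members were 0.04 and 0.02. With library size only, 73 and 71 members were higher and none lower; that scaling moved the median of all genes to 0.66 and 0.72, and the members lay at 0.05 and 0.05 relative to it. With cell scaling, 25 were higher and 4 lower beta minus alpha and 32 and 1 beta minus delta, with the members at 0.06 and 0.05 relative to the median of all genes. When only beta cells of 30 to 60% insulin entered, 34 were higher and 4 lower beta minus alpha (median 0.19, beside 0.00 for all genes) and 25 and 4 beta minus delta (median 0.15, beside -0.03). With TMM scaling over all beta cells the share of members called was thus near the background or somewhat above it in both directions. Among beta cells of 30 to 60% insulin most calls were higher, but the share of all genes called there is not given. These window counts therefore cannot be set against a background. Called higher against both other classes were Atp5c1, Cox7a2l, Cox7c, Ndufa1, Ndufa7, Ndufb10, Ndufb11, Ndufs3, Ndufv3 and Uqcrh. Among the members called lower against both were Atp5b, Cox6c, Ndufa11, Ndufb6, Ndufc2, Sdhc and Uqcrc2. Without wild type library 1, 7 members were higher beta minus alpha, and without knockout library 2, 9 were higher and 4 lower. Beta minus delta, the higher count was lowest without knockout library 1 (5) and 7 without each of the others, and the lower count was 4 without wild type library 2 or either knockout library. Beta minus alpha, the lower count was also 4 without wild type library 2 and 6 without knockout library 1.

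Uqcrh differed by 0.65 ± 0.07 (SE) on the log2 scale from alpha cells (edgeR adjusted p = 1.05e-06) and by 0.61 ± 0.07 from delta cells (adjusted p = 6.40e-06). Cox7a2l differed by 0.62 ± 0.08 from alpha cells (adjusted p = 1.03e-05) and 0.54 ± 0.08 from delta cells (adjusted p = 0.000138). For Ndufb11 the differences were 0.50 ± 0.07 and 0.46 ± 0.07 (adjusted p = 1.52e-05 and 0.000103). Its level fell in alpha cells from 584 and 598 to 515 and 486 CPM and in delta cells from 596 and 635 to 527 and 524, while both knockout beta libraries lay above both wild type ones. Ndufa1 showed the same order, with a difference of 0.57 ± 0.07 from delta cells (adjusted p = 2.78e-05), where it had 717 and 605 against 557 and 563. On the other side, Ndufc2 differed by -0.50 ± 0.07 from alpha cells (adjusted p = 3.55e-05), where it had 325 and 329 against 280.1 and 281, and by -0.39 ± 0.07 from delta cells (adjusted p = 0.000966). Ndufc2 was called lower in every class. Atp5b differed by -0.37 ± 0.06 from alpha cells (adjusted p = 0.000281), and Ndufa11 by -0.38 ± 0.07 (adjusted p = 0.000728). Against delta cells, Ndufb6 differed by -0.44 ± 0.08 (adjusted p = 0.000735) and Cox6c by -0.36 ± 0.07 (adjusted p = 0.00195). With library size only, the differences of Ndufc2, Atp5b and Ndufa11 from alpha cells and of Ndufb6, Ndufc2 and Cox6c from delta cells turned positive. Without each library in turn, the calls of Uqcrh, Cox7a2l, Ndufa1, Ndufb11 and Ndufs3 (higher) and of Ndufc2 (lower) were among those that held against both classes. The fitted value of Ndufa4l2 against alpha cells rested on the 0 counts in knockout alpha cells and is no measure of size.

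**Figure D3:**
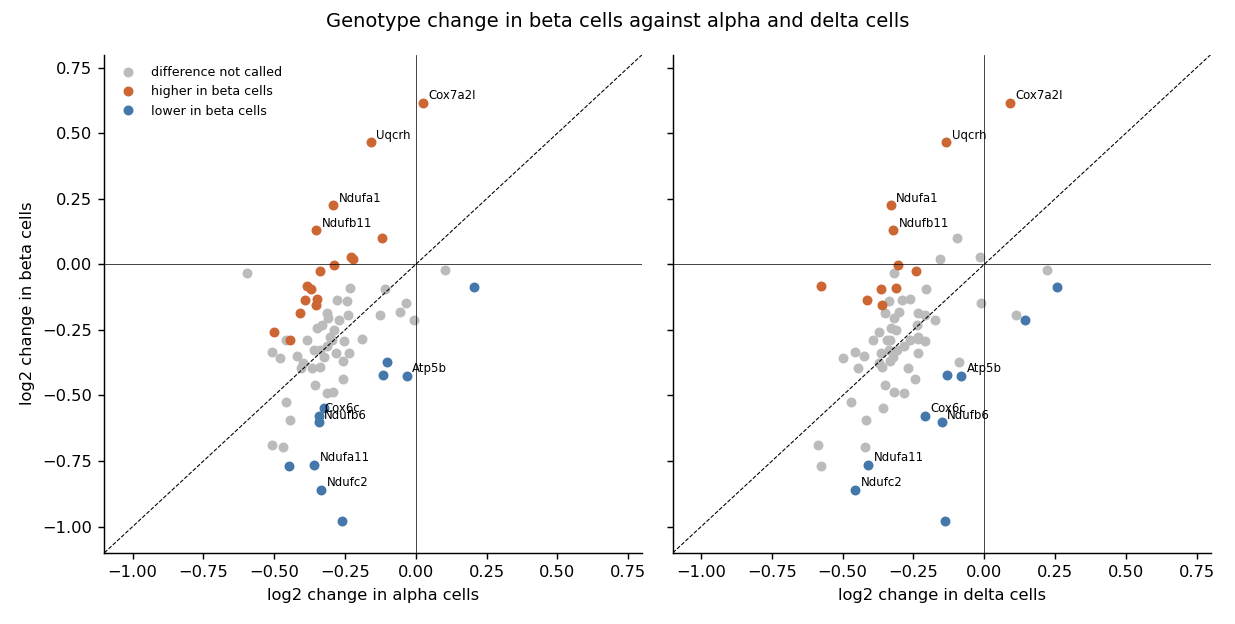
Log2 change in beta cells (vertical) against that in alpha cells (left) and delta cells (right) for each member tested in both, under TMM scaling; coloured points had a difference between the classes at an adjusted p under 0.05, the dashed line marks equal change, and the members with the smallest p for a difference in either comparison are named. Uqcrh and Cox7a2l lie above 0 in beta cells and near 0 in the others, while Ndufc2 lies below the dashed line; with library size only, 73 and 71 members were called higher in beta cells.

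**Figure D4:**
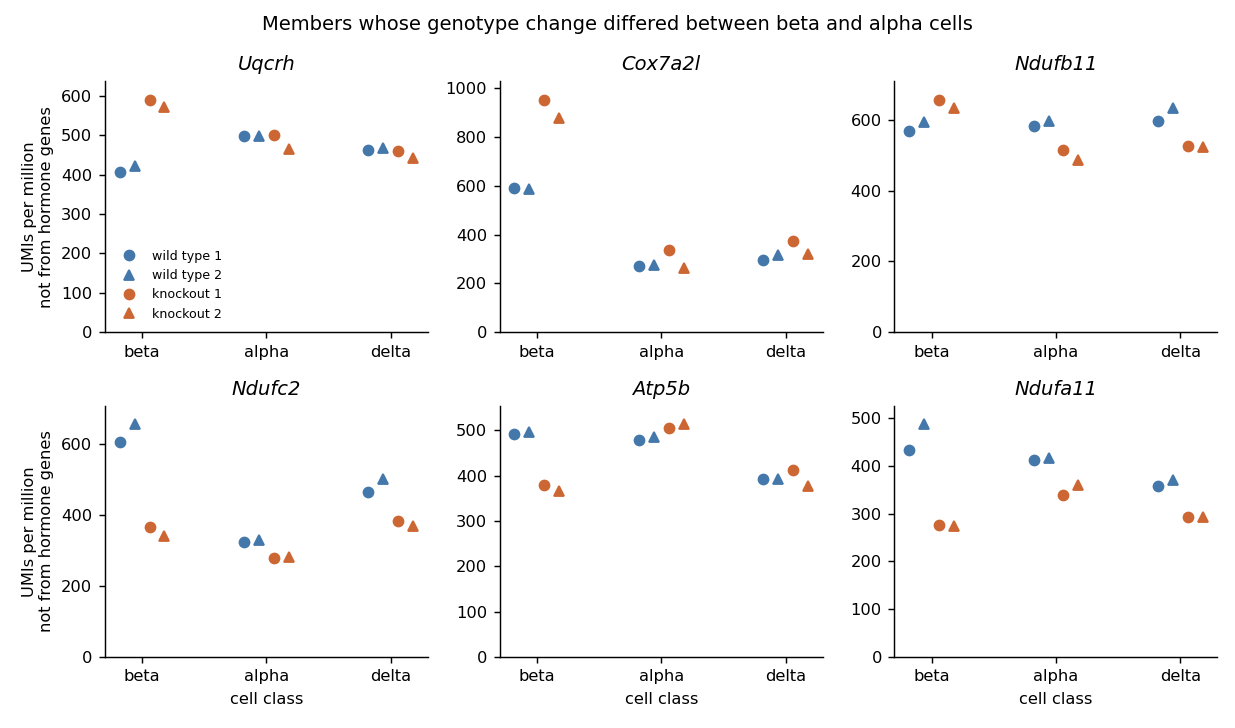
CPM, over non-hormone UMIs, of 6 members in each library, by cell class. Uqcrh and Cox7a2l lie higher in both knockout beta libraries, while in alpha cells the genotypes overlap for both, Ndufb11 is higher in knockout beta and lower in knockout alpha and delta libraries, and Ndufc2, Atp5b and Ndufa11 are lower in knockout beta libraries, with Ndufc2 at 365 and 341 against 605 and 656.

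Among wild type libraries the cell types differed in their levels of these genes. Alpha against beta cells, 41 of 74 members were higher and 14 lower, against a background of 32.1% and 32.5% of 14163 genes, with a median of 0.16. Delta against beta cells, 9 were higher and 41 lower, against 25.9% and 30.2%, with a median of -0.16. Scaled by the number of cells, 5 were higher and 44 lower in alpha cells and 1 higher and 72 lower in delta cells, since these cells held fewer UMIs; relative to the median gene, which moved by -0.41 and -0.61, the members lay at 0.16 and -0.14. With library size only, 71 and 73 members were higher, and the medians of all genes stood at 0.91 and 1.35. Atp5e was higher in alpha cells, at 2583 and 2211 CPM against 1401 and 1225 in beta cells (log2 difference 1.06 ± 0.05 (SE), edgeR adjusted p = 7.05e-13). Sdhd was higher too, at 192 and 210.3 against 130.4 and 141 (log2 difference 0.76 ± 0.05 (SE), edgeR adjusted p = 9.90e-11), as was Ndufa6, a complex I accessory subunit (log2 difference 0.65 ± 0.05 (SE), edgeR adjusted p = 5.89e-10). Lower in alpha cells were Uqcrq (log2 difference -0.89 ± 0.04 (SE), edgeR adjusted p = 3.53e-12), Cox7a2l (log2 difference -0.91 ± 0.05 (SE), edgeR adjusted p = 5.50e-11) and Ndufc2 (log2 difference -0.76 ± 0.05 (SE), edgeR adjusted p = 1.69e-10). In delta cells Uqcrq was lower still, at 529.8 and 548 against 1242 and 1238 (log2 difference -1.22 ± 0.05 (SE), edgeR adjusted p = 1.72e-13), with Cox7a2l (log2 difference -0.96 ± 0.06 (SE), edgeR adjusted p = 1.25e-10) and Ndufb9, a membrane arm subunit (log2 difference -0.80 ± 0.05 (SE), edgeR adjusted p = 1.53e-10). All 4 complex II members were lower in delta than in beta cells, from -0.56 for Sdhc to -0.34 for Sdhb. The higher members in delta cells were led by Ndufb4 (0.22 ± 0.05), Cox6c (0.21 ± 0.05) and the low-count Cox6b2 (1.51 ± 0.36). The higher count in delta cells fell to 2 and 1 without wild type library 1 or 2 and to 4 without a filter on low counts.

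Uqcrq, Ndufc2 and Cox7a2l, the 3 members lower in wild type alpha than beta cells with the smallest p, were also called between genotypes in beta cells. Uqcrq in knockout beta cells (779 and 781 CPM) lay between wild type beta (1242 and 1238) and wild type alpha cells (584 and 587). Ndufc2 in knockout beta cells (365 and 341) lay near wild type alpha cells (325 and 329). Cox7a2l moved away from them, to 954 and 877 in knockout beta cells against 273 and 275 in wild type alpha cells. These are levels side by side, with no test between genotypes of different classes.

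Knockout beta cells held a smaller insulin share, so the summed members were also read among beta cells of matched insulin share. At 50 to 70% insulin, members were 3.41% and 3.40% of non-hormone UMIs in wild type (2072 and 2054 cells) and 2.94% and 2.83% in knockout libraries (449 and 380 cells). At 30 to 50% insulin the shares were 2.84% and 3.14% in wild type (150 and 44 cells) and 2.87% and 2.83% in knockout libraries (1394 and 775 cells). In the first window the genotypes were as far apart as over all beta cells. In the second wild type library 1 lay within the knockout range and wild type library 2 above it. Cells of the second window held on average 9748 and 15668 non-hormone UMIs in wild type, against 23495 and 26496 in knockout libraries. At 10 to 30% insulin wild type libraries had 39 and 19 cells with 2.54% and 2.85%, and knockout libraries 2.82% and 2.76%. Above 70% insulin, knockout libraries had 4 and 7 cells. Within knockout libraries the share varied little from window to window. When only beta cells of 30 to 60% insulin were fitted, 19 of 74 members were called lower and 3 higher. The median was -0.15, beside 0.01 for all genes, and the share of all genes called there is not given. The wild type side then rested on 429 and 244 cells.

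**Figure D5:**
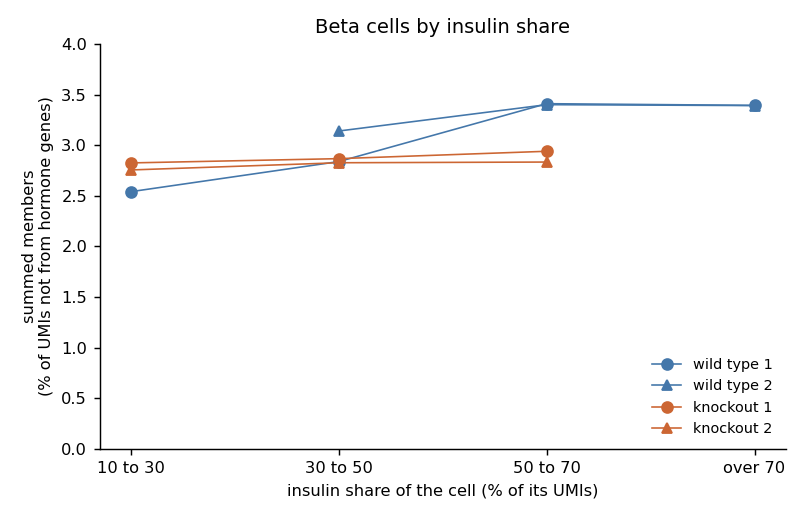
Summed members as a percentage of non-hormone UMIs in beta cells of 4 ranges of insulin share, for each library; ranges with fewer than 20 cells in a library are not drawn. At 50 to 70% insulin wild type libraries lie at 3.41% and 3.40% and knockout libraries at 2.94% and 2.83%. At 30 to 50% wild type library 1 (2.84%) lies within the knockout range (2.87% and 2.83%) and wild type library 2 (3.14%) above it. At 10 to 30% wild type library 1 (2.54%) lies below both knockout libraries (2.82% and 2.76%).

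Most members have short transcripts, and changes over all genes went with transcript length. In alpha cells, members with annotated transcripts of up to 1000 bases had a median log2 change of -0.34 (46 members), and the other 1215 genes of that length -0.25, of which 32.8% were called lower. Genes of over 3000 bases, among which there was no member, had 0.14. In delta cells the values were -0.33 for short members, -0.24 for other short genes and 0.16 for long genes. In beta cells short members had -0.29, other short genes -0.05 and long genes 0.05. Between 1000 and 3000 bases (26 members in each class), members had -0.20 beside -0.03 for other genes in beta cells, -0.24 beside -0.07 in alpha cells and -0.26 beside -0.08 in delta cells. The members thus stood farther from other genes of their length in beta cells than in alpha or delta cells among transcripts of up to 1000 bases, but not among those of 1000 to 3000 bases. By level, members with a fitted log2 CPM over 8 had a median of -0.33 in alpha cells, beside -0.23 for the other 263 genes in that range, of which 41.8% were called lower. In beta cells the same values were -0.36, 0.10 and 27.3% of 172 genes, for 11 members. Between 6 and 8, which held 47 beta cell members, the median was -0.29 beside -0.10 for 708 other genes, of which 36.9% were called lower, and in alpha cells -0.33 (34 members) beside -0.14, with 37.1% of 1049 genes called lower. The part of transcript length in the members' changes was not tested.

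RNA of the mitochondrially encoded subunits was higher relative to that of the nuclear members in knockout cells. Its UMIs per UMI of the nuclear members were 2.02 and 2.04 in wild type, against 2.59 and 2.67 in knockout beta cells. Alpha cells had 1.29 and 1.36 against 2.17 and 2.10, and delta cells 1.41 and 1.36 against 2.16 and 2.08. The ratio was higher in both knockout libraries in every class, and it does not depend on the scaling of the libraries. Of 13 mitochondrially encoded genes, 1 rose and 3 fell in beta cells, but 11 rose and 1 fell with library size only or scaled by the number of cells. In alpha cells 7 rose and 3 fell, and in delta cells 6 rose and 2 fell. The 3 that fell in beta cells were mt-Nd4l (-1.33 ± 0.09), mt-Atp8 (-0.98 ± 0.13) and mt-Nd5 (-0.46 ± 0.08), of which mt-Nd4l and mt-Atp8 have open reading frames that overlap a neighbour's. The mitochondrial share of UMIs, often used as a sign of RNA quality, had medians over cells, of all UMIs, of 1.73% and 1.70% in wild type, against 3.64% and 3.58% in knockout beta cells. The medians were 2.48% and 2.47% against 3.72% and 3.75% in alpha cells, and 2.67% and 2.58% against 3.74% and 3.74% in delta cells. Of non-hormone UMIs, the mitochondrially encoded subunits summed to 6.83% and 6.90% against 7.43% and 7.52% in beta cells, and to means of 4.52% ± 0.04 against 6.32% ± 0.15 in alpha and 4.11% ± 0.10 against 5.44% ± 0.21 in delta cells (SD, n = 2 libraries a genotype). The part of the mitochondrial share in the members' change was not tested.

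Other genes of the pathway were read from lists taken by function. Of 44 assembly factors tested, which help to build the complexes, 18 fell and 2 rose in beta cells (median -0.21), 9 fell in alpha cells and 3 in delta cells. Ndufaf4, an assembly factor of complex I, changed by -0.65 ± 0.08 (edgeR adjusted p = 0.00131), Cox20, a chaperone of complex IV, by -0.49 ± 0.07 (adjusted p = 0.00177), and Surf1, an assembly factor of complex IV, rose by 0.64 ± 0.08 (adjusted p = 0.00160). None of the 3 was called in alpha cells. Of 22 genes of mitochondrial import and the outer membrane, 14 fell in beta cells (median -0.33), 15 of 22 in alpha and 7 of 21 in delta cells. Vdac1, the channel of the outer membrane, changed by -0.75 ± 0.07 (adjusted p = 0.000537), the import chaperone Timm10 by -0.66 ± 0.07 and the matrix chaperonin Hspd1 by -0.54 ± 0.07. Of 20 genes of the tricarboxylic acid cycle and of pyruvate entry, 13 fell and 1 rose in beta cells (median -0.32), 5 of 19 fell and 1 rose in alpha cells, and 3 fell in delta cells. Fh1, fumarase, changed by -1.72 ± 0.13 in beta cells (adjusted p = 0.000301) and -0.29 ± 0.08 in alpha cells, and the difference between them was -1.39 ± 0.10 (adjusted p = 2.87e-08). Idh3a, of the NAD-linked isocitrate dehydrogenase, changed by -0.99 ± 0.07 (adjusted p = 0.000233) and pyruvate carboxylase, Pcx, by -0.61 ± 0.06 (adjusted p = 0.000710). Scaled by the number of cells, 44 assembly factors, 21 import genes and 16 genes of the cycle were called higher in beta cells, and 1 gene of the cycle was still called lower; relative to the median gene the 3 lists then lay at -0.22, -0.33 and -0.33.

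Among 19 further respiratory chain genes, 9 fell and 2 rose in beta cells (median -0.18), 7 fell in alpha cells and 4 in delta cells. Cycs, cytochrome c, changed by -0.57 ± 0.08 (edgeR adjusted p = 0.00223), and the ubiquinone synthesis genes Coq7 and Coq8a by -0.81 ± 0.09 (adjusted p = 0.00104) and 0.56 ± 0.07 (adjusted p = 0.00118). Of 13 regulators of respiratory gene transcription, 5 were called higher and 1 lower in beta cells and 7 were not called (median 0.08, beside 0.00 for all genes). Nrf1 rose by 0.96 ± 0.07 (adjusted p = 0.000283), Tfb1m, a methyltransferase of mitochondrial ribosomal RNA, by 1.07 ± 0.12 (adjusted p = 0.00101), and Esrrg, an estrogen-related receptor, by 0.73 ± 0.10 (adjusted p = 0.00239). In alpha cells Nrf1 had 0.29 ± 0.14 and was not called, and the difference from beta cells was 0.69 ± 0.12 (adjusted p = 0.000436). Scaled by the number of cells, 17 of 19 and 12 of 13 genes of the 2 lists were called higher in beta cells, at -0.19 and 0.07 relative to the median gene.

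RNA of markers of other cell types also moved with genotype. In beta cells the 8 macrophage markers summed to 108 and 103 CPM in wild type, against 50.7 and 47.6 in knockout libraries, with 5 of 8 called lower. The 7 endothelial markers summed to 8.49 and 11.1 against 17.1 and 15.7, with 1 called higher. The 5 erythroid markers summed to 0.376 and 0.151 against 5.68 and 3.48, with all 4 tested called higher. The 3 T and B cell markers in the files summed to 45.9 and 37.0 against 11.0 and 16.4, and the 1 tested was called lower. Ppy and Pyy, hormones of PP cells, summed to 7099.8 and 6203 against 60653 and 35384, and both were called higher. The 6 alpha cell markers summed to 3039.5 and 2590.4 against 1335 and 1146, with 2 called lower and 1 called higher. All 7 beta cell markers (Ins1, Ins2, Iapp, Nkx6-1, Pdx1, G6pc2 and Slc2a2) were detected in beta cells and all 7 were called lower in knockout libraries. In alpha cells endothelial markers summed to 12.1 and 13.8 against 22.9 and 23.1, with 4 of 7 called higher. Erythroid markers there summed to 0.162 and 0 against 6.03 and 4.17 and macrophage markers to 49.6 and 52.6 against 62.5 and 42.3, and in delta cells erythroid markers to 0.265 and 0 against 8.44 and 7.66. Alas2 was at 0 in all libraries in both. Whether RNA of other cell types' markers came from other cells or was made in the cells themselves was not tested. The part of other cells' RNA in the members' changes was not tested either.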

How the data were processed

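The files deposited by the authors hold UMI counts of 19074 genes in single cells of 4 libraries, made with Cell Ranger 3.0.0, Seurat 2.3.4 and the mm10 genome per the submitters' processing notes; the handling of reads that map to several genes is not given in the sources used here. Deposited cells had at least 501 genes and at most 9.96% mitochondrial UMIs. Doublets were scored per library against simulated pairs of cells (0.8% per 1000 cells; 283, 273, 150 and 49 removed), and 2 to 4 cells per library that met 2 class rules were left out. For each class the UMIs of a library were added up, and the 2 genotypes were compared by the quasi-likelihood test of edgeR 4.0.16 in R 4.3.3. Sums were scaled by TMM after filterByExpr, and genes were called at a p under 0.05 after Benjamini-Hochberg adjustment over all genes tested. Differences between classes and wild type class contrasts came from 1 fit of 12 sums with the library as a block. Log2 changes are knockout over wild type. Sums of replicate libraries differed by more than counting noise in every class (chi-square per degree of freedom 3.04 to 44.7).

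The members and gene lists (203 genes, of which 5 are not among the rows) were chosen with earlier results of these data known. Genes named are the 3 called each way with the smallest p per complex in beta cells and per other comparison, all of complex II, paralogue groups, members under the filter, and up to 3 called genes per list; genes outside this rule are said to be. Alternatives were sums scaled by cell number, library size only, RLE, hormone genes left out, DESeq2 1.42.0, no filter, genes with a mean of 20 or more counts, no doublet removal, cells with a second hormone left out, at least 1000 genes and under 10% mitochondrial UMIs, beta cells of 30 to 60% insulin, leaving out each library, and a replicate block. The fits were tested on simulated data. Empty droplets were not analysed here, and 1 result that was tested and counted is not reported here by name. The other tools were scikit-learn 1.9.0, matplotlib 3.10.9, pandas 2.3.3, SciPy 1.17.1 and NumPy 2.4.6 under Python 3.11.15.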

Additional observations from a re-analysis of the deposited data

Results flagged for a closer look

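The genotype change of the members named here differed between beta cells and another cell type by an interaction test (edgeR adjusted p under 0.05), taking the 3 smallest p each way per comparison. Against alpha cells, Uqcrh, the hinge protein of complex III, was higher by 0.65 on the log2 scale, Cox7a2l by 0.62 and the complex I subunit Ndufb11 by 0.50. Lower against alpha cells were Ndufc2 (-0.50) and Ndufa11 (-0.38), both of complex I, and Atp5b (-0.37), the catalytic subunit of ATP synthase. Against delta cells, Uqcrh was higher by 0.61, Ndufa1 by 0.57 and Ndufb11 by 0.46. Lower against delta cells were Ndufb6 (-0.44), Ndufc2 (-0.39) and Cox6c (-0.36). Without each library in turn, the calls of Uqcrh, Cox7a2l, Ndufb11, Ndufc2, Atp5b and Ndufa11 held against alpha cells, and those of Uqcrh, Ndufa1, Ndufb11, Ndufb6 and Ndufc2 against delta cells, while that of Cox6c did not.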

How the results depend on the processing

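Counts of called members depended on the scaling, and stayed within 1.5 times their value with RLE size factors, hormone genes left out, a mean of at least 20 counts, no doublet removal, second-hormone cells left out and stricter cells. For stricter cells, the limit of 10% mitochondrial UMIs removed no cell, since deposited cells had at most 9.96%. As members higher and lower, the counts with TMM scaling were 3 and 46 (beta cells), 0 and 55 (alpha cells), 0 and 41 (delta cells), 18 and 11 (beta minus alpha), 11 and 9 (beta minus delta), 41 and 14 (wild type alpha minus beta), 9 and 41 (wild type delta minus beta). With library size only they were 69 and 0 (beta cells), 2 and 10 (alpha cells), 2 and 9 (delta cells), 73 and 0 (beta minus alpha), 71 and 0 (beta minus delta), 71 and 1 (wild type alpha minus beta), 73 and 0 (wild type delta minus beta). Scaled by the number of cells they were 68 and 0 (beta cells), 72 and 0 (alpha cells), 50 and 0 (delta cells), 25 and 4 (beta minus alpha), 32 and 1 (beta minus delta), 5 and 44 (wild type alpha minus beta), 1 and 72 (wild type delta minus beta). Among beta cells of 30 to 60% insulin they were 3 and 19 (beta cells), 34 and 4 (beta minus alpha), 25 and 4 (beta minus delta), 51 and 12 (wild type alpha minus beta), 15 and 22 (wild type delta minus beta), where fewer wild type cells enter. DESeq2 called 7 lower for beta minus alpha and 5 for beta minus delta, and without a filter 4 were higher for wild type delta minus beta. Leaving out 1 library, where the lone library of a genotype is assumed to vary like the others, gave 2 to 4 higher and 14 to 51 lower (beta cells), 0 to 1 higher and 40 to 54 lower (alpha cells), 0 higher and 9 to 24 lower (delta cells), 7 to 18 higher and 4 to 9 lower (beta minus alpha), 5 to 7 higher and 4 to 7 lower (beta minus delta), 31 to 41 higher and 11 to 14 lower (wild type alpha minus beta), 1 to 8 higher and 33 to 41 lower (wild type delta minus beta). The summed share of the members in beta cells (log2 ratio -0.25) became 0.64 as a share of all UMIs, and -0.27 to -0.24 without each library. The cause of these changes was not tested.

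Named genes also changed sign with the scaling. With library size only the log2 values became, in beta cells Ndufc2 0.053, Ndufb6 0.31, Ndufa11 0.15, Sdhb 0.58, Uqcrq 0.22, Uqcrb 0.38, Uqcrc1 0.54, Cox6c 0.33, Cox5a 0.32, Cox6b1 0.58, Atp5g1 0.14, Atp5b 0.48, Atp5e 0.42, Sdha 0.89, Sdhc 0.82, Atp5g2 0.55, Atp5g3 0.57, Cox6b2 0.87, Cox8a 0.70, Ndufa4 0.52, for beta minus alpha Ndufc2 0.17, Atp5b 0.30, Ndufa11 0.29, for beta minus delta Ndufb6 0.31, Ndufc2 0.36, Cox6c 0.39, for wild type alpha minus beta Uqcrq 0.019, Ndufc2 0.16 and for wild type delta minus beta Uqcrq 0.16, Cox7a2l 0.42, Ndufb9 0.58. Scaled by the number of cells they became, in beta cells Ndufc2 0.058, Ndufb6 0.31, Ndufa11 0.16, Sdhb 0.58, Uqcrq 0.23, Uqcrb 0.39, Uqcrc1 0.55, Cox6c 0.34, Cox5a 0.32, Cox6b1 0.59, Atp5g1 0.15, Atp5b 0.49, Atp5e 0.43, Sdha 0.90, Sdhc 0.83, Atp5g2 0.56, Atp5g3 0.58, Cox6b2 0.90, Cox8a 0.71, Ndufa4 0.52, in alpha cells Uqcrq 0.26, Sdhb 0.26, Ndufs8 0.30, in delta cells Uqcrq 0.090, Atp5g1 0.10, Atp5g2 0.18 and for wild type delta minus beta Ndufb4 -0.37, Cox6c -0.37. The other reversals were of values near 0 or of low counts: Sdha 0.22 (beta cells, 30 to 60% insulin), Sdhc 0.042 (beta cells, 30 to 60% insulin), Cox6b2 -0.69 (wild type delta minus beta, 30 to 60% insulin), Cox6b2 0.027 (beta cells, no doublet removal), Cox6b2 0.028 (beta cells, second hormone left out). Without each library in turn, Cox6b2 ranged from -0.46 to 0.36, Sdha ranged from -0.057 to 0.035, Sdhd ranged from -0.054 to 0.11 in beta cells.

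The replicate number as a block gave 3 higher and 38 lower members in beta, 0 and 57 in alpha and 0 and 39 in delta cells. Deviations of same-numbered libraries correlated at 0.0628, 0.00895 and 0.0749, and with 2 pairs the numbers are not shown to pair the libraries. Counts near the filter limit Ndufa4l2, Cox6b2 and Cox7b2, and 2 libraries per genotype limit every test. With 230 to 3541 cells per sum, the delta cell sums were the smallest.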

Other observations

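Some members differed between the wild type libraries in every cell type. Atp5k, a membrane subunit of ATP synthase, had 564 and 374 CPM in the wild type beta libraries, 704 and 454 in alpha and 513 and 338 in delta cells, and 315 and 333, 484 and 522 and 329 and 378 in the knockout libraries. Ndufa3, an accessory subunit of complex I, had 232 and 168, 214 and 156 and 206 and 148 in the wild type libraries, and 175 and 181, 144 and 161 and 170.4 and 148 in the knockout libraries. In both genes wild type library 1 was the highest of the 4 libraries in all 3 cell types. These genes were chosen after their values were seen.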
